A study of Homo sapiens with 6 samples.

Results

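The genes described here carry out mitosis: they condense chromosomes, build the spindle, attach chromosomes to it, release the sister chromatids and split the cell. Of 45 genes named for this set (mitosis and chromosome segregation), 44 had a probe set that the array annotation gives to 1 gene symbol, out of 18417 genes named on the array. CENPA, the centromeric histone H3 variant, shared its only probe set with another gene and was not analysed here. The rule lists the members by name and uses no measured value, but it was written with earlier results of these data known. Where a gene had several probe sets, which among the members concerned BIRC5 alone, the brightest was used.

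RNA came from 3 established human lines of uveal melanoma, a tumour of the pigment cells of the eye: 92.1, Mel 270 and Mel 290. Each line was grown alone or beneath an insert that held T cells of healthy volunteers, activated with CD3/CD28 beads. The insert membrane had pores of 0.4 µm, through which soluble products of the T cells can pass. No insert is listed for the cultures grown alone. The comparison thus joins T cell products, the insert with its beads, and a medium shared with other cells. The design cannot tell these apart. All 6 cultures were kept for 64 h in a serum-free medium, after 80000 cells of 92.1 or 100000 cells of each other line had been plated. When that medium was added Mel 290 had reached confluence and the others had not quite. There was 1 array per line and condition, so the 3 lines are the only replicates. The number of T cell donors is not given in the sources used here, and nothing says that any line was cultured more than once.

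Passage through the cell cycle is driven by cyclin-dependent kinases. Cyclin B bound to CDK1 starts mitosis, the spindle checkpoint holds it until every kinetochore is attached, and the anaphase-promoting complex then marks cyclins and securin for destruction. Many of these genes are transcribed mainly in G2 and M phase, so their RNA is widely used as a measure of how many cells are dividing. In RNA from whole cultures, fewer cells in mitosis and less RNA in each such cell cannot be told apart.

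The melanocyte genes MLANA, PMEL and TYR lay between 9.39 and 13.08 (log2 array value) on the 4 arrays of 92.1 and Mel 270. In Mel 290 MLANA was at 4.92 alone and 5.05 with T cells and TYR at 4.79 and 4.64, below the filter level of 5.80 under which genes were not tested. TYRP1 was also below it in Mel 290, at 5.19 and 5.02, and PMEL was just above it, at 6.10 and 5.97. The melanocyte regulators MITF (8.96 and 8.16) and SOX10 (6.84 and 7.25) were above it. SOX10 was near the T cell marker GZMB in Mel 290 (6.48 and 6.90), so its level does not show by itself that it was expressed. S100B, another melanocyte marker, was at 4.67 and 4.69 in Mel 290. It was at 4.71 and 4.76 in 92.1 and at 9.07 and 6.21 in Mel 270. In Mel 290 MLANA, TYR, TYRP1 and S100B were thus below the filter level and PMEL was just above it, whereas MITF was well above it. Of 11 T cell markers found, 3 lay above that level in the co-cultures, namely CD8A, LCK and GZMB, each also above it on every array grown alone. The T cell receptor genes CD3D, CD3E and CD3G did not exceed 5.70 with T cells. The summed level of the T cell list (linear scale) ran from 512 to 599 alone and from 480 to 616 with T cells. The summed level of 6 monocyte and macrophage markers ran from 848 to 2422 alone and from 1403 to 3560 with T cells and was higher in each line. CD68, which tumour cells can also express, was its brightest gene, AIF1 and LYZ were at most at 4.09 on any array, and the part of this list in the results was not tested. For 3 B cell markers the sums ran from 175 to 245 alone and from 158 to 259 with T cells. The sum of 7 melanocyte markers was lower with T cells in each line, at 21674 against 27147 in 92.1, 14361 against 26683 in Mel 270 and 618 against 802 in Mel 290, and its part in the results was not tested either.

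All 44 mitotic genes were lower with T cells than alone in all 3 lines, against 25.5% of the 13808 genes tested. A change is the log2 level with T cells less the level without them, and its SD is over the 3 lines. The median change over the 44 genes was -1.36, against -0.041 over all tested genes, and the members ran from -0.41 for AURKA to -1.93 for CDKN3. The mean change was at least a 2-fold decrease in 34 of 44 genes (1.85% of all tested genes), and 23 of the 44 were among the 100 tested genes with the lowest mean change. The largest changes were in Mel 270, with a median of -2.15, next to -0.91 in 92.1 and -0.79 in Mel 290. No line was repeated, so these differences between lines were not tested.

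The lines differed widely in the size of these decreases, and 1 of the 44 passed the test. SGO1 fell at an adjusted p of 0.05 (limma with cell line as a block, Benjamini-Hochberg over all tested genes), where 0.0362% of all tested genes were called lower and 0.449% in either direction. The other members had adjusted p from 0.053 to 0.26. At an unadjusted p of 0.05, 42 of 44 were lower and 0 higher, against 13% lower and 7.02% higher over all tested genes. The SD of the change over the lines had a median of 0.75 among the members and 0.24 among all tested genes. The limma test draws each gene's spread towards that of all tested genes. The p-values of members with a wide spread therefore lean on the narrower spread of other genes. An exact permutation test within 3 pairs cannot go below p = 0.25, whatever the gene. Without the array pair of any 1 line, without the block or after cyclic loess, SGO1 was not called, whereas each of the 44 genes remained lower in every line kept.

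**Figure D1:**
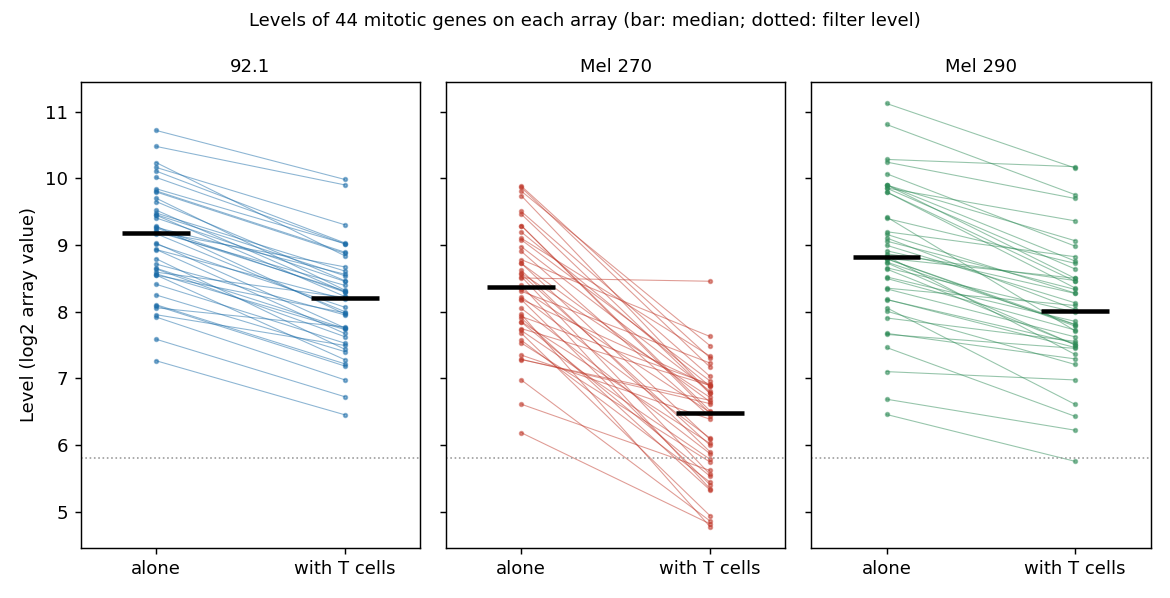
Level (log2 array value) of the 44 mitotic genes on each array, with a line per gene from growth alone to co-culture, a panel per cell line, a black bar at the median and a dotted line at the filter level. The median moved from 9.18 to 8.20 in 92.1, from 8.37 to 6.48 in Mel 270 and from 8.82 to 8.01 in Mel 290.

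The array of Mel 270 with T cells held the lowest of the 6 values for 43 of 44 genes, a position it took for 19.7% of all tested genes. AURKA was the exception, with its lowest value in Mel 290 with T cells. In Mel 270, 38 of 44 genes were at least 2-fold lower and 27 at least 4-fold lower, against 4.52% and 0.97% of all tested genes. In 92.1 the count at least 2-fold lower was 13 (2.71% of all tested genes) and in Mel 290 it was 15 (2.3%), with 0 at least 4-fold lower in either (0.167% and 0.13% of all tested genes). None of the 44 was 2-fold higher in 92.1, Mel 270 or Mel 290, where 3.63%, 5.29% and 2.07% of all tested genes were. Only CCNA2, CDKN3, CENPI, DLGAP5, KIF11 and SGO1 were at least 2-fold lower in all 3 lines, which held for 0.232% of all tested genes. The change in Mel 270 was the largest of the 3 decreases for 40 of 44 genes, against 34.8% of all tested genes and 41.5% of the 3516 tested genes that were lower in every line.

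Growth alone already set the lines apart, though by less. Of the 3 arrays grown alone, that of 92.1 was highest for 26 genes, that of Mel 290 for 18 and that of Mel 270 for 0, and Mel 270 was lowest for 35. Shares over all tested genes were not counted for this order, which rests on 1 array per line. The median gap between the highest and lowest line was 0.85 alone and 2.03 with T cells, next to 0.58 and 0.63 over all tested genes. It was wider in co-culture for 40 of 44 genes and for 57.8% of all tested genes. Averaged over both conditions, 13 members were called lower in Mel 270 than in the mean of the other lines (limma, adjusted p under 0.05, 7.62% of all tested genes) and 0 higher (6.83%). Among them were the checkpoint kinase gene TTK (difference -2.28, adjusted p = 0.013), CDK1 (-2.31, adjusted p = 0.041) and UBE2C (-1.22, adjusted p = 0.015). In 92.1 6 of 44 members were called higher than in the other lines, a count near the 9.73% of all tested genes, and 0 lower (6.18%). They were 4 inner kinetochore genes, CENPH, CENPK, CENPL and CENPO, with SGO1 and ESPL1, which guard and cut the cohesin between sister chromatids. In Mel 290 6 of 44 were called higher, namely ANLN, ECT2, PRC1, SGO2, TTK and UBE2C, and 0 lower (14.9% of all tested genes). That count of higher genes is near the 11.3% of all tested genes. The higher genes of 92.1 and Mel 290 are therefore listed only and not read as a trait of the set. These line levels include each line's co-culture array, and the spread behind their p-values is that of unequal responses, not of repeat cultures.

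**Figure D2:**
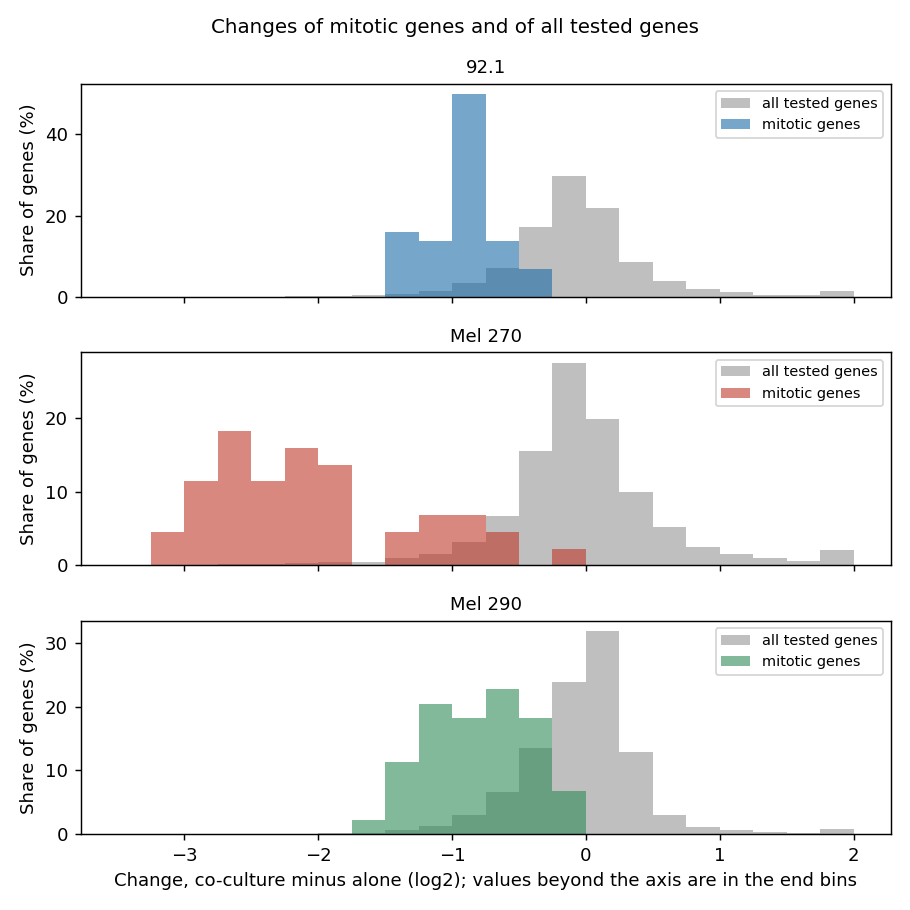
Share of genes (%, linear axis) by change in co-culture (log2, bins of 0.25) for all 13808 tested genes in grey and the 44 mitotic genes in colour, a panel per line. The mitotic genes lie below 0 in each line, and their median is -0.91 for 92.1, -2.15 for Mel 270 and -0.79 for Mel 290.

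The promoters of these genes were searched for elements known from cell cycle genes. The CHR (cell cycle genes homology region) is a short promoter element through which MuvB complexes, with RB-like proteins in resting cells and with MYBL2 and FOXM1 in dividing cells, act on G2 and M phase genes. The CCAAT box is bound by NF-Y, and E2F sites are typical of genes of S phase. Both strands of RefSeq promoter windows (GRCh38.p14, 250 bases before to 50 after the annotated start, the first listed window of a gene) were searched for TTTGAA or TTCGAA (CHR), CCAAT, and TTCCCGC or TTGGCGC (E2F-type core). A match is a match of letters, not a bound site, and matches of different elements can share letters. A window was found for 36 of the 44 members.

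The CHR letters occurred in 25 of 36 member windows (69.4%), in 11.1% of the 10866 windows of tested genes and in 16.6% of all 27305 windows. A CHR match within 50 bases of the start was found in 20 of 36 member windows (55.6%) and in 3.17% of those of tested genes. CCAAT occurred in 29 of 36 (80.6%, against 35.7% of tested genes) and the E2F-type core in 5 of 36 (13.9%, against 14.3%). Among 34 windows of DNA replication genes the shares were 5.88% for CHR, 55.9% for CCAAT and 61.8% for the E2F-type core, and 0 had CHR letters within 50 bases of the start. The 25 members with CHR letters had a median change of -1.48 and the 11 without of -1.22.

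**Figure D3:**
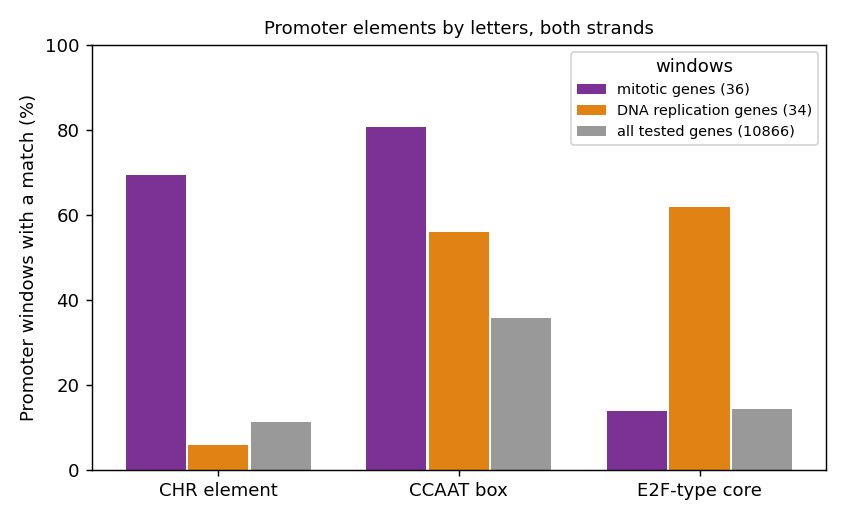
Share of promoter windows (%) that hold the letters of each element on either strand, for 36 mitotic genes, 34 DNA replication genes and 10866 tested genes. CHR letters stand in 69.4% of the mitotic windows and 5.88% of the replication windows, and the E2F-type core in 13.9% and 61.8%.

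The windows below belong to the 6 members with the largest mean decreases among those with CHR letters, and show where the elements lie. Each runs 5′ to 3′ on the gene's strand from 250 bases before to 30 bases into the transcript, and capitals mark every CHR, CCAAT or E2F-type match on either strand.
CDKN3: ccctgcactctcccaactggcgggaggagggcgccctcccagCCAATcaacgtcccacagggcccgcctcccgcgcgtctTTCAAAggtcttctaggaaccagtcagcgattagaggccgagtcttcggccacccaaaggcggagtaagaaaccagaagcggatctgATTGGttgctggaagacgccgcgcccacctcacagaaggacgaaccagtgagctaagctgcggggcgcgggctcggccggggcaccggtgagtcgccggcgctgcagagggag
CDK1: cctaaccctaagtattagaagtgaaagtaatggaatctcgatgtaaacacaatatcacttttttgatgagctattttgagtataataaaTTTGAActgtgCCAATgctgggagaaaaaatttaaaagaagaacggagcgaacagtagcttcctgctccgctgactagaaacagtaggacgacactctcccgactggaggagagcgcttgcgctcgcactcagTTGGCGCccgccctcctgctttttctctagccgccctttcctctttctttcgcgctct
KIF11: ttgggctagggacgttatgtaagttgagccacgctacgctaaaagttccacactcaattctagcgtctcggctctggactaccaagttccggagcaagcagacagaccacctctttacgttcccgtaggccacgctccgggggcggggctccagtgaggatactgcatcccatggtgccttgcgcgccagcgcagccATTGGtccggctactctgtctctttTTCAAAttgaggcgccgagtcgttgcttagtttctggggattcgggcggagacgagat
DLGAP5: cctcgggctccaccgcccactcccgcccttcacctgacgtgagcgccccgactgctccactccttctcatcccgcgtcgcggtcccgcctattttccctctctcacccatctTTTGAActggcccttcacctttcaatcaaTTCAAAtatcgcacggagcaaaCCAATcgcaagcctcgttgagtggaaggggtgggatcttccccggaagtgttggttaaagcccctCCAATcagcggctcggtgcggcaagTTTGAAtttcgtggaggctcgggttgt
ANLN: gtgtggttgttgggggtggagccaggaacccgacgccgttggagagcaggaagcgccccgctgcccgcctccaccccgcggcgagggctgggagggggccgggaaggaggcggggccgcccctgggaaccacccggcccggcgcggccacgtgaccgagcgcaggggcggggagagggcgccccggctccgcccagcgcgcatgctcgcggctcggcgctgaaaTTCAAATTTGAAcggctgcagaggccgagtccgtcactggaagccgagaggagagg
BUB1B: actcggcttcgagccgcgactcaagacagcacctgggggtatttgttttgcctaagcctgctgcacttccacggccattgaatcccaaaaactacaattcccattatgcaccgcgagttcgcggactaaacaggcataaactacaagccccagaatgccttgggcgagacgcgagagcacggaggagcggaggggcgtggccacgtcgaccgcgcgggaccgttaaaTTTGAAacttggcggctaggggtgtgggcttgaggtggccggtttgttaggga

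Those windows, on GRCh38.p14, were chr14:54396757-54397036 for CDKN3, chr10:60778081-60778360 for CDK1, chr10:92592880-92593159 for KIF11, chr7:36389612-36389891 for ANLN and chr15:40160819-40161098 for BUB1B on the forward strand, and chr14:55191556-55191835 for DLGAP5 on the reverse strand. Counted from the annotated start as 1, the CHR letters began at -28 in KIF11 and at -23 in BUB1B. In ANLN 2 matches lay back to back, from -26 to -21 and from -20 to -15. DLGAP5 had 3, of which the last covered positions 4 to 9, inside the transcript. In CDKN3 and CDK1 they lay farther out, from -170 to -165 and from -161 to -156. PLK1 and CCNB2, which are not printed, had CHR letters from -29 to -24 alike. SGO1 had TTCGAA across the start of its first listed window, from -3 to 3. That start is not the end of the gene in RefSeq, so the position depends on the window taken. KIF20A, CCNA2 and CCNB1 held no CHR match as spelled here but 2, 1 and 2 CCAAT matches.

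Cyclins, their kinases and the enzymes that regulate them made up 9 members. CDKN3 encodes a phosphatase that acts on CDKs and CDK1 the kinase that drives entry into mitosis. CDKN3 was at 9.03, 8.39 and 8.84 alone in 92.1, Mel 270 and Mel 290 and at 7.76, 5.35 and 7.36 with T cells. The co-culture values all lay below those alone, a separation that 18 of 44 members and 5.96% of all tested genes had. Its change of -1.93 ± 0.97 (SD, n = 3 lines, 3.82-fold lower) was the largest mean decrease of the set (limma adjusted p = 0.091). CDK1 stood at 9.29, 7.96 and 9.16 alone and at 7.97, 4.78 and 8.28 with T cells, so that Mel 270 lay below the filter level with T cells while Mel 290 with T cells stayed above Mel 270 alone. Its change was -3.18 in Mel 270 and -1.32 and -0.88 in 92.1 and Mel 290 (mean -1.79 ± 1.22, adjusted p = 0.13).

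The cyclins were lower by like amounts. CCNA2, the cyclin A gene of S phase and early mitosis, was at 10.24, 9.08 and 9.85 alone (92.1, Mel 270 and Mel 290, the order used from here on) and at 8.84, 6.96 and 8.64 with T cells, without overlap. With -1.58 ± 0.48 it had the most even change of the group apart from the aurora kinases (adjusted p = 0.067). The B-type cyclins CCNB1 and CCNB2, partners of CDK1, are paralogues, and their groups overlapped because Mel 270 alone lay below another line with T cells. CCNB1 differed by -0.92, -1.85 and -0.86 (mean -1.21 ± 0.56, adjusted p = 0.091) and CCNB2 by -0.92, -2.48 and -1.09 (mean -1.49 ± 0.86, adjusted p = 0.11). PLK1, a kinase of centrosome maturation and cytokinesis, went from 10.17, 9.81 and 9.90 alone to 9.30, 7.49 and 8.50, again without overlap (-1.53 ± 0.74, adjusted p = 0.091). NEK2, a kinase of centrosome separation, differed by -0.57, -2.31 and -0.99.

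The aurora kinases were at the small end of the set. AURKB, the kinase of the chromosomal passenger complex, stood at 9.01, 8.78 and 9.20 alone and 8.07, 7.63 and 8.82 with T cells, and 92.1 and Mel 270 made up most of its change of -0.82 ± 0.40 (adjusted p = 0.11). AURKA, the kinase of spindle poles, was at 9.20, 8.51 and 8.91 alone and at 8.67, 8.46 and 8.27 with T cells. Mel 270 was nearly level (-0.05), unlike its other mitotic genes, and AURKA was the only member whose smallest decrease was in that line. Its mean change was -0.41 ± 0.31 (adjusted p = 0.26).

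The spindle checkpoint and the control of anaphase had 8 members, and SGO1 was among them. SGO1 protects cohesin at centromeres until anaphase. Its level was 8.93, 7.53 and 8.06 alone and 7.67, 5.75 and 6.61 with T cells, so each line came down although the ranges overlapped through the high level of 92.1. SGO1 fell by 1.50 ± 0.27 (2.83-fold, adjusted p = 0.044), with -1.26, -1.79 and -1.45 in the lines, and this small spread set it apart from members with larger decreases. Its paralogue SGO2, also a guardian of cohesion, differed by -0.94, -1.93 and -0.67 (mean -1.18 ± 0.67, adjusted p = 0.11).

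Checkpoint genes had decreases of similar size. BUB1B, which encodes the checkpoint protein BUBR1, was at 9.17, 8.62 and 8.74 alone and at 8.002, 5.90 and 7.81 with T cells, all lower than any value alone (-1.61 ± 0.97, 3.05-fold, adjusted p = 0.11). BUB1, its paralogue and a kinetochore kinase, differed by -0.95, -2.17 and -1.14 (mean -1.42 ± 0.65, adjusted p = 0.088). TTK, the kinase that starts checkpoint signalling, was the member with the widest gap between lines grown alone, at 8.25, 6.98 and 9.11, and reached 7.40, 4.86 and 8.03 with T cells (-1.35 ± 0.68, adjusted p = 0.096). CDC20, which activates the anaphase-promoting complex and is the target of the checkpoint, went from 9.52, 9.20 and 9.06 to 8.30, 6.88 and 8.33 without overlap (-1.42 ± 0.81, adjusted p = 0.11).

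The enzymes that carry out anaphase had smaller decreases. UBE2C, a ubiquitin-conjugating enzyme of the anaphase-promoting complex, differed by -0.38, -0.85 and -0.40 (mean -0.54 ± 0.27, adjusted p = 0.15). ESPL1, the protease separase that cuts cohesin, differed by -0.88, -0.96 and -0.13 (mean -0.66 ± 0.46, adjusted p = 0.18), so in Mel 290 it was nearly level.

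Centromere and kinetochore genes had 10 members analysed and the smallest group median, -0.87, with 4 of 10 at least 2-fold lower in mean. CENPF and CENPE, large proteins that join the outer kinetochore in mitosis, led the group. CENPF was at 10.48, 9.89 and 9.80 alone and 9.90, 7.31 and 8.36 with T cells (-1.53 ± 1.00, adjusted p = 0.13), with the smallest change in 92.1. CENPE, a kinesin that moves chromosomes to the spindle equator, differed by -0.84, -2.12 and -0.72 and its groups did not overlap. The other CENP genes of the set encode parts of the inner kinetochore complex that sits on the centromere through the whole cycle. Of these CENPI stood out, at 8.79, 8.19 and 8.79 alone and 7.44, 6.89 and 7.78 with T cells: with -1.36, -1.30 and -1.01 it had the smallest spread over lines of all members (-1.22 ± 0.19), and its adjusted p of 0.053 just missed the threshold. With genes filtered at the median level CENPI was called too.

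CENPN (-1.16 ± 0.61) and CENPH (-0.96 ± 0.36) came next, and CENPH was the dimmest member, from 7.26, 6.18 and 6.46 alone to 6.45, 4.82 and 5.76 with T cells. CENPL, CENPK, CENPO and CENPM had mean changes from -0.77 to -0.50, with adjusted p from 0.095 to 0.26. In CENPI, CENPO and BIRC5 the largest decrease was in 92.1 rather than Mel 270. BIRC5 encodes survivin, which brings the passenger complex to the centromere, and differed by -0.90, -0.66 and -0.38 (mean -0.65 ± 0.26, adjusted p = 0.12). Its second probe set, with a mean level of 5.22 below the filter, was also lower in each line.

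Spindle motors and proteins of spindle assembly and cytokinesis were 13, all at least 2-fold lower in mean, and in Mel 270 each was at least 3.4-fold lower. KIF20A, a motor of cytokinesis, was at 9.20, 9.29 and 9.42 alone, the most even of the motors, and at 8.40, 6.48 and 7.71 with T cells (-1.78 ± 1.01, adjusted p = 0.11). It had the largest decrease of all members in Mel 290, 3.27-fold. KIF20B, its paralogue, differed by -0.90, -2.74 and -0.77. KIF11, the motor that pushes spindle poles apart, went from 9.45, 8.53 and 8.64 to 8.23, 5.56 and 7.50, which left every co-culture value below every value alone (-1.77 ± 1.03, adjusted p = 0.11).

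DLGAP5, a spindle protein that stabilises microtubules at kinetochores, was at 9.65, 8.56 and 9.80 alone and 8.47, 6.00 and 8.46 with T cells (-1.70 ± 0.75, adjusted p = 0.085). ANLN, the scaffold of the contractile ring, stood at 10.11, 9.74 and 11.12 alone and 9.03, 6.78 and 10.16 with T cells, so Mel 290 in co-culture was still above the other lines alone. Its mean change of -1.67 ± 1.12 hid a 7.79-fold decrease in Mel 270 next to 2.11-fold and 1.96-fold. The motors KIF14, KIF23 and KIF18A had changes of -2.78, -2.69 and -2.58 in Mel 270 and from -1.23 to -0.30 in the other lines. TPX2, which activates AURKA and seeds microtubules, differed by -0.82, -2.47 and -0.83 without overlap of the groups, in contrast with AURKA itself.

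ECT2, which switches on the GTPase RhoA for furrow formation, was nearly level in Mel 290. It went from 9.70, 8.73 and 10.29 to 8.33, 6.65 and 10.18, which is 2.60-fold and 4.21-fold lower in 92.1 and Mel 270 and only 1.08-fold in Mel 290. PRC1, which bundles microtubules of the central spindle, differed by -0.96, -1.77 and -0.49, with Mel 290 again smallest. KIF4A, a chromosome-bound motor that works with PRC1, differed by -0.89, -2.18 and -1.03, and KIF2C, which takes microtubules apart at centromeres, by -0.46, -2.13 and -0.80. In both the co-culture values lay below all values alone.

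Genes of mitotic chromosome structure were 4. MKI67, the proliferation marker Ki-67 that coats mitotic chromosomes, was at 10.02, 9.29 and 9.40 alone and at 9.02, 6.51 and 8.73 with T cells. The groups did not overlap, and its decrease was 1.99-fold in 92.1, 6.85-fold in Mel 270 and 1.60-fold in Mel 290 (-1.48 ± 1.13, adjusted p = 0.15). TOP2A, the topoisomerase that untangles sister chromatids, went from 10.72, 9.86 and 10.81 to 9.98, 7.17 and 9.76 (-1.49 ± 1.05, adjusted p = 0.14). The condensin I subunits NCAPG and NCAPH differed by -0.87, -2.64 and -0.67 and by -1.27, -1.83 and -0.65, so these 2 parts of the same complex took different sizes in 92.1 and Mel 270.

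**Figure D4:**
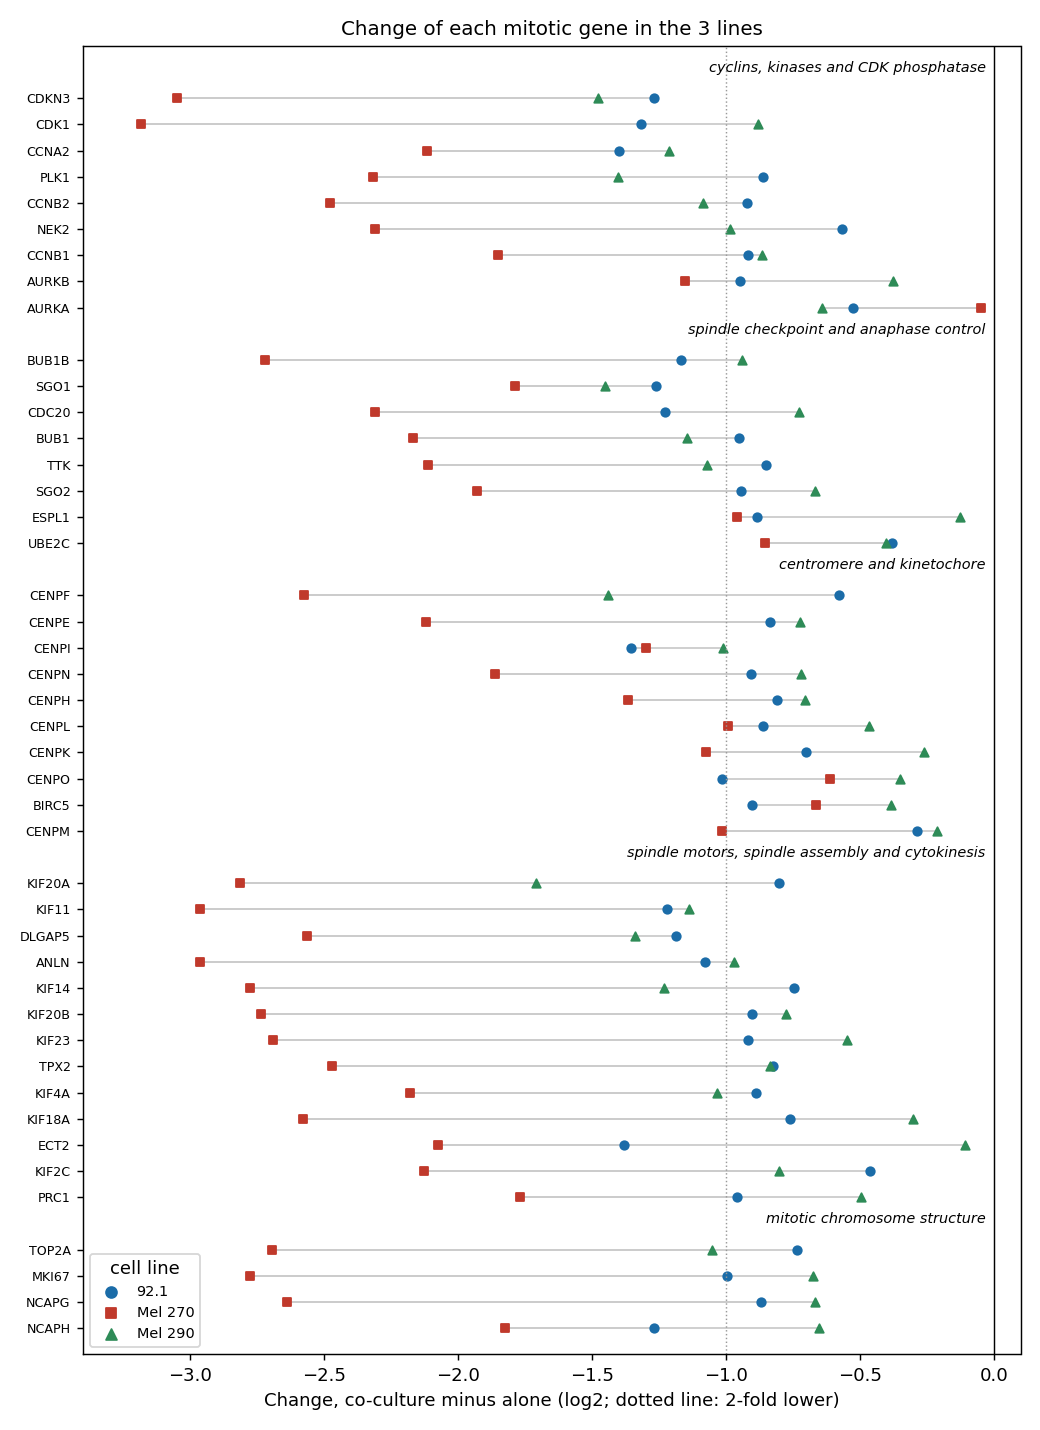
Change of each of the 44 mitotic genes in co-culture (log2) in 92.1 (circles), Mel 270 (squares) and Mel 290 (triangles), grouped by role, with 1 array per line and condition and no error within a line. All points lie below 0, and Mel 270 is leftmost for 40 of 44 genes.

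Low signal limits how large the changes in Mel 270 can be read. On its co-culture array 13 members lay below 5.80, among them CDK1, CDKN3, KIF11, KIF14, NEK2, TTK and both shugoshin genes, and in Mel 290 with T cells 1 did, CENPH. No member was below that level on any other array. With low values raised to 5.80 the median change over the members was -1.24 in place of -1.36. Without Mel 270 it was -0.84, and without 92.1 or Mel 290 it was -1.60 or -1.55.

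Across the 44 genes, the size of the change in Mel 270 went with that in Mel 290 (Pearson r = 0.57, Spearman rho = 0.58) more than with that in 92.1 (r = 0.31, rho = 0.18), and 92.1 and Mel 290 gave r = 0.22. These are correlations across genes, which are not independent replicates, and probe sets share their brightness range on all arrays. Over all tested genes the same pairs of lines gave r = 0.50, 0.64 and 0.50.

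Partner genes outside the set were read from lists written for this work. Beside the counts of each list stand the shares over all tested genes. These were 25.5% lower in all lines and 13% lower at an unadjusted p of 0.05 in limma. Of 20 other kinetochore and checkpoint genes tested, 17 were lower in all lines, 15 were lower at an unadjusted p of 0.05 and 0 passed the adjusted threshold (median -0.97). KNL1 (-1.59 ± 0.86), SPC25 (-1.54 ± 0.80) and NUF2 (-1.48 ± 0.92), all of the outer kinetochore, were lowest, and ZW10, MAD1L1 and MIS12 (-0.15, 0.02 and 0.10) were level. Among 15 other spindle and cytokinesis genes 12 were lower in all lines (median -1.15, 0 past the adjusted threshold), led by CEP55 (-1.64 ± 0.88), ASPM (-1.38 ± 0.98) and SPAG5 (-1.35 ± 0.74). Of 12 other centromere and passenger genes 8 were lower in all lines (median -0.54), with OIP5 and HJURP, which load new CENPA, at -1.25 ± 0.50 and -1.05 ± 0.49 and CENPB, CENPT and CENPC from 0.03 to 0.16.

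The anaphase-promoting complex, condensin and cohesin, and mitotic entry lists had medians nearer 0 than the members. Among 17 anaphase-promoting complex subunits and partners the median was -0.06 and 7 were lower in all lines. FBXO5, a cell-cycle-dependent inhibitor of the complex, was lowest at -0.95 ± 0.39, ANAPC15 and ANAPC7 followed at -0.81 ± 0.14 and -0.64 ± 0.14, and ANAPC10, CDC26 and CDC16 were between 0.05 and 0.14. In the condensin and cohesin list (17 tested, median -0.29, 9 lower in all lines) the condensin genes NCAPD2, SMC2 and NCAPG2 were at -0.98 ± 0.15, -0.95 ± 0.32 and -0.92 ± 0.22. NIPBL, which loads cohesin, was at 0.07 ± 0.18. Mitotic entry regulators had a median of -0.53 over 8 genes, with CDC25C, the phosphatase that activates CDK1, at -1.20 ± 0.90 and CDC25B and WEE1 at -0.28 and -0.30. None of these 3 lists had a gene past the adjusted threshold. At an unadjusted p of 0.05 in limma they had 6 of 17, 8 of 17 and 5 of 8 lower genes, each a larger share than the 13% of all tested genes.

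Among 18 regulators of the DREAM, MuvB and E2F kind, MYBL2 (-1.33 ± 0.75), FOXM1 (-1.29 ± 0.45) and E2F8 (-0.98 ± 0.41) were lowest. MYBL2 and FOXM1 are activators of G2 and M phase genes and are themselves periodic. FOXM1 had changes of -1.34, -1.71 and -0.81 in 92.1, Mel 270 and Mel 290 and MYBL2 of -2.09, -1.29 and -0.59, a different order of lines. RBL2, the RB-like protein of resting cells, and LIN37, a MuvB subunit, were at 0.28 ± 0.26 and 0.31 ± 0.15. The list's median was -0.27, with 9 lower in all lines, 6 lower at an unadjusted p of 0.05 and 0 past the adjusted threshold.

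DNA replication and S phase genes were the closest group for comparison. Of 40 tested, 36 were lower in all lines, 34 were lower at an unadjusted p of 0.05 and 0 passed the adjusted threshold, with a median of -0.74. GINS2 (-1.71 ± 0.75), GINS1 (-1.63 ± 0.76) and TYMS (-1.61 ± 0.68) were lowest and POLA2, RPA2 and GINS3 smallest, from -0.20 to -0.14. By line their medians were -0.99 in 92.1, -0.95 in Mel 270 and -0.34 in Mel 290, whereas the mitotic genes had -0.91, -2.15 and -0.79. The values in 92.1 thus lay close together for both groups, and in Mel 270 and Mel 290 the mitotic median was the lower. These medians were not tested against each other.

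CDK inhibitors and G1 genes did not differ in 1 direction. Over 14 tested genes of that list the median was 0.13. In all lines 4 were lower (25.5% of all tested genes) and 5 higher (2236 of all 13808 tested genes). At an unadjusted p of 0.05 in limma 3 were lower (13% of all tested genes) and 2 higher (7.02%), and 0 passed the adjusted threshold. CDKN1A, the CDK inhibitor p21, was at 8.53, 8.60 and 7.22 alone and at 9.21, 10.50 and 8.22 with T cells. It was higher in each line, most in Mel 270, with changes of 0.69, 1.90 and 1.00 (mean 1.19 ± 0.63, adjusted p = 0.11). CDKN1B and CDKN2B, other CDK inhibitors, were at 0.48 ± 0.45 and 0.36 ± 0.15. CDK2, the kinase of S phase, was lowest at -1.15 ± 0.71, with CDK4 at -0.75 ± 0.49 and CCND3 at -0.65 ± 0.22.

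**Figure D5:**
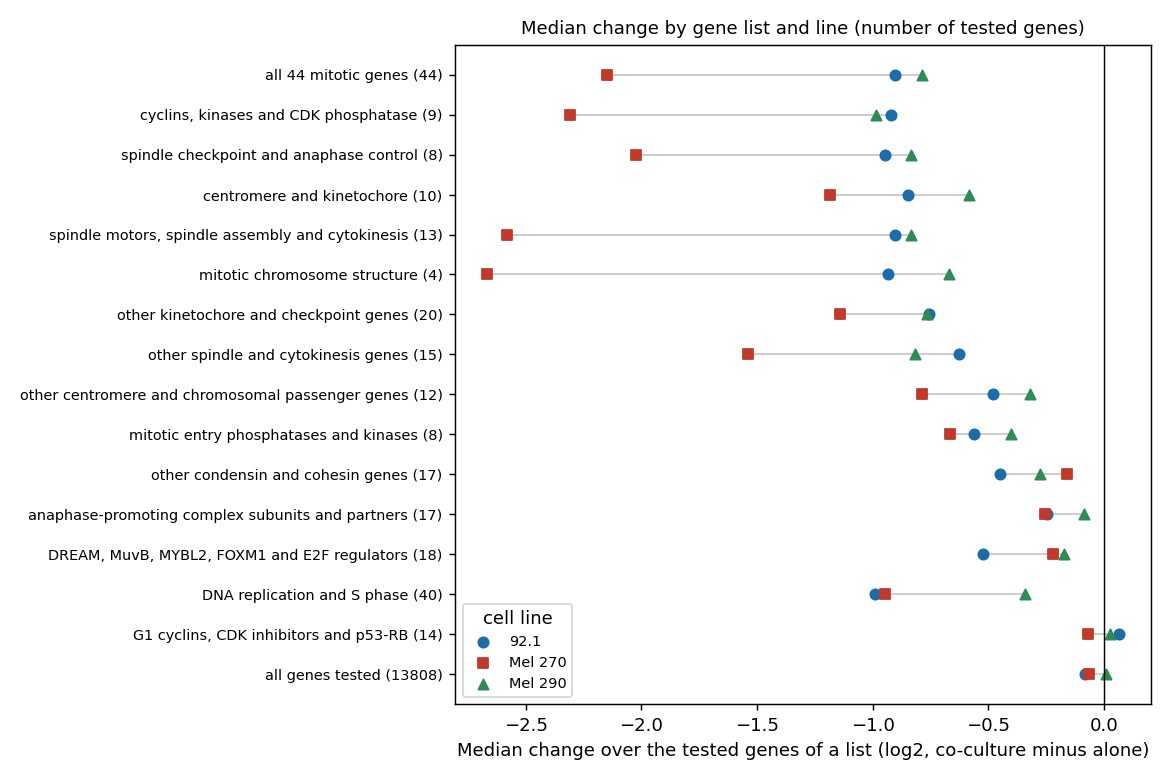
Median change (log2, co-culture minus alone) over the tested genes of each list in 92.1 (circles), Mel 270 (squares) and Mel 290 (triangles), with the number of genes in brackets. The mitotic genes are at -0.91, -2.15 and -0.79, DNA replication genes at -0.99, -0.95 and -0.34, and all tested genes within 0.1 of 0.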

How the data were processed

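Total RNA of 6 cultures was measured on Affymetrix arrays. The authors deposited log2 values (1.50 to 13.89), with Affymetrix Expression Console 1.2.0.20 as the tool, per the submitters' processing notes. How background was corrected and probes were summarized and normalized is not given in the sources used here. Array medians lay between 6.63 and 6.69, so the values were used as deposited. Arrays carry no depth, and their number limits the precision.

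Of 33297 probe sets, 21214 were listed in the array annotation, 19460 with 1 symbol and 1754 with several. Symbols were updated through RefSeq gene identifiers (19429 matched, GRCh38.p14, names only). The brightest probe set stood for a gene, and 13808 genes with a mean at or above the 25th percentile of listed probe sets (5.80) were tested. All 44 members passed. Paralogues can bind each other's probes.

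Co-culture was compared with growth alone in limma 3.58.1 (R 4.3.3), with lmFit, eBayes and cell line as a block, which left 2 residual degrees of freedom beside a prior worth 3.10. The pairing comes from the labelled cell lines: over all probe sets, both arrays of a line had r from 0.962 to 0.980, and arrays of different lines from 0.918 to 0.966. Line levels were contrasts in the same fit. P-values rest on each gene's spread among the 3 lines, which eBayes draws towards a variance estimated over all tested genes. For members with a wide spread the standard error is thus smaller than their own values alone would give. The p-values were adjusted with the Benjamini-Hochberg method across the 13808 genes. The fit was tested on simulated data in which a changed gene had the same change in every line. The members' changes were unequal between lines, which that simulation did not model.

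Members, gene lists, tests and alternatives were chosen with earlier results of these data known. All members were named, with the genes past the threshold and up to 3 lowest and 3 highest mean changes of each other list. Alternatives were no block, each line left out, cyclic loess, other filters, low values raised to 5.80, the mean of all probe sets of a gene and a trend with robust eBayes. Protein sequences were not used here.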

Additional observations from a re-analysis of the deposited data

Results flagged for a closer look

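Among the tested genes of the pathway and comparison lists, 5 had changes of at least 0.5 in opposite directions in different lines. Each line had 1 array per condition, so the differences were not tested. E2F7, a repressor of the E2F family, was 1.71 higher with T cells in Mel 270 and differed by -0.54 in Mel 290 and -0.18 in 92.1, a gap of 2.26 between the lines. CIT, a kinase of late cytokinesis, was 1.02 higher in Mel 270 and differed by -0.91 in Mel 290 and -0.19 in 92.1, a gap of 1.93. PDS5B, a regulator of cohesin, was 0.57 higher in Mel 270 and differed by -0.56 in 92.1 and -0.06 in Mel 290, a gap of 1.13. CDK6, a G1 kinase, was 0.55 higher in 92.1 and differed by -1.33 in Mel 270 and -0.15 in Mel 290, a gap of 1.88. CCND1, the cyclin D1 gene, was 0.61 higher in Mel 290 and 0.41 higher in 92.1 and differed by -0.60 in Mel 270, a gap of 1.21. CDK6 and CCND1 were named here after their values were seen. None of the 44 mitotic genes had opposite directions between lines.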

How the results depend on the processing

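The members called at an adjusted p of 0.05 in limma numbered 1 (SGO1). They numbered 0 without the replicate block, where 0.13% of all tested genes were called in either direction, and 0 after cyclic loess (0.297%). Without 92.1, Mel 270 or Mel 290 they numbered 0 each time (0.355%, 0.616% and 0.558% of all tested genes). With the filter at the median, under which 42 members were tested, they numbered 2 (with CENPI, 0.714% of the genes tested there). Beside the counts of 0, members lower at an unadjusted p of 0.05 were 15 without the block, 41 after cyclic loess, 37 without 92.1, 39 without Mel 270 and 41 without Mel 290. The share of all tested genes lower at that p was counted in the main fit only (13%), so these counts have no share beside them. SGO1 was called under 5 of 10 alternatives, with adjusted p from 0.037 to 0.83. No alternative turned the direction of any member, all members tested were lower in every line used under each alternative, and the median change over members ran from -0.84 without Mel 270 to -1.60 without 92.1. Counts of members that differed between line levels stayed within 1.5 times. Cyclic loess moved the median of all tested genes from -0.041 to -0.0020. With 1 array per line and condition, no difference between the lines' responses could be tested, and values under 5.80 are imprecise.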

Other observations

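Genes outside the set whose promoter windows hold the same letters were looked at after the members' shares had been seen. Of 140 tested genes that are not members and have CHR letters within 50 bases of the start together with a CCAAT box, 71 were lower in all 3 lines (50.7%, against 26.9% of the 10866 tested genes with a window). Of these 140, 54 were lower at an unadjusted p of 0.05 in limma (38.6%, against 13.8%), and their median change was -0.24, with -0.30 in 92.1, -0.21 in Mel 270 and -0.28 in Mel 290. All 1178 genes that are not members and have CHR letters anywhere in the window, the 140 included, had a median of -0.06, with 17.2% lower at that p, and 1545 genes outside the set with the E2F-type core had -0.09, with 19%. The 5436 genes outside the set with none of the 3 elements had a median of -0.04, with 11.8% lower. These letters and windows overlap with other properties of genes, and the shares carry no test.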
